A study of Mus musculus with 12 samples.

Results

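The 36 genes described here encode the enzymes, transporters and regulators that carry glucose and glycogen to lactate in muscle. They were chosen by name: the rows of the count table whose NCBI Gene ID belongs to these mouse symbols were taken, 36 of 27179 genes listed. The rule used no measured value, but the list was drawn up with earlier results of these data known. All 36 had enough counts for edgeR's filter and entered the test.

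Poly(A)+ RNA was sequenced from 12 tibialis anterior (TA) muscles of 6 mice, and the reads of each gene were counted. All mice were male wild-type (WT) C57BL/6N, obtained at 6 to 8 weeks of age. Each mouse had 1 TA electroporated with 10 μg of empty pcDNA3 plasmid (Control muscles, n = 6) and the other with 10 μg of a plasmid encoding the full-length human lncRNA *FRAIL1* (*FRAIL1* muscles, n = 6), and both muscles were taken at day 7. Both legs thus had the plasmid DNA and the electroporation, and neither group is untouched muscle. Electroporation reaches only some fibers, whereas RNA came from tissue, so every value is a sum over fibers that did and did not take up plasmid and over the other cells present. The human transcript is not among the mouse genes counted, so its level was not measured here.

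Glycolysis splits glucose to pyruvate and yields ATP without oxygen, and fast muscle fibers such as those that fill most of the mouse TA rely on it during short, forceful work. Much of their fuel is glycogen, which is built by glycogen synthase and broken down by glycogen phosphorylase under the control of phosphorylase kinase and of a phosphatase held on the glycogen particle. Several steps are catalysed by isoenzymes from separate genes. Muscle fibers use a muscle isoform (*Hk2*, *Pfkm*, *Aldoa*, *Pgam2*, *Eno3*, *Pygm*), whereas *Hk1*, *Pfkl*, *Pfkp*, *Aldoc*, *Pgam1*, *Eno1* and *Pygb* serve other cell types and, for some of them, muscle during development.

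Total counts lay between 45018389 and 59309210 in Control muscles and between 44848322 and 60527385 in *FRAIL1* muscles. Levels are given as CPM, a gene's counts relative to the total of its library, with totals scaled by edgeR's TMM factors. The labelled tissue matched its markers: all 8 myofiber genes listed for this purpose were expressed, and together they held between 145771 and 169157 CPM in Control and between 107958 and 155356 CPM in *FRAIL1* muscles. *FRAIL1* muscle 5 stood apart from the other *FRAIL1* muscles, with the lowest myofiber sum, a fibroblast marker sum of 4839 CPM (at most 2310 in the other 5) and a TMM factor of 1.19. Most of that fibroblast sum was *Col1a1* and *Col3a1*, at 1969 and 2531 CPM in this muscle. Results that rest on it are therefore given with and without it.

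Few of the 36 genes passed the test in the main fit, which had a term for group only. The clearest changes were rises of isoforms that are not those of mature fibers. More genes fell when the mouse was added as a block, 8 of 36 against 6.62% of all genes. The comparison asks how the mRNA of these genes differed with *FRAIL1* expression. In the quasi-likelihood test of edgeR, adjusted by Benjamini-Hochberg over 15502 genes, *Hk1* and *Eno1* rose and *Phkg1* fell at an adjusted p under 0.05. The 2 genes that rose stand beside 4.43% of all genes tested, and the 1 that fell beside 1.85%, shares near that of the transcriptome in this fit. Most of the other genes lay slightly under Control: 28 of 36 log2 fold changes were below 0, against 48.4% of all genes, with a median of -0.17 against 0.010 over all genes tested. At an unadjusted p under 0.05, 14 of the 36 were lower and 2 higher, against 12.5% and 15.2% of all genes. The 36 genes took 6.25 ± 0.251% of the unscaled counts in Control muscles (SD, n = 6) and 6.01 ± 0.418% in *FRAIL1* muscles (SD, n = 6). That difference lay within the spread between muscles. Between legs, the share was higher in the *FRAIL1* muscle of mice 1, 3 and 4 and lower in that of mice 2, 5 and 6. It fell most in mouse 5, from 6.61% to 5.34%. Unlike CPM, this share had no TMM scaling, whose factors ran from 0.935 to 0.983 in Control and 0.965 to 1.19 in *FRAIL1* muscles. The share on the TMM scale was not computed. In a tissue sample, fewer cells of a type cannot be told apart from less RNA per cell.

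**Figure D1:**
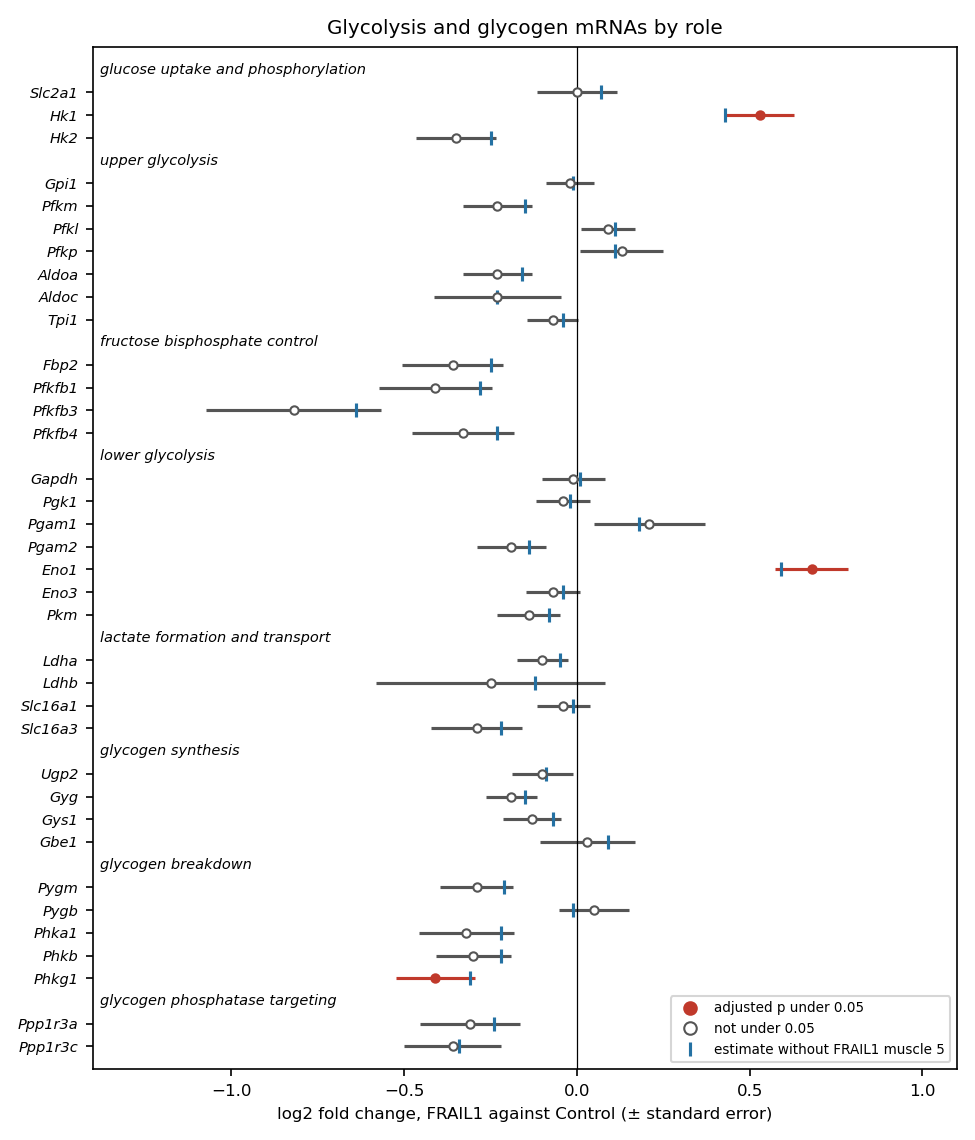
Log2 fold change of each of the 36 genes, *FRAIL1* against Control muscles (x axis; bars are ± 1 standard error), grouped by role. Filled red points have an adjusted p under 0.05 (*Hk1*, *Eno1*, *Phkg1*), open points do not, and the blue ticks give the estimate without *FRAIL1* muscle 5. Most open points lie to the left of 0, and for most of them the tick lies nearer to 0 than the point.

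Adding the mouse to the fit as a block, which compares the legs of each animal, left *Hk1* and *Eno1* as the genes that rose (7.48% of all genes rose in that fit) and raised the number that fell from 1 to 8. These were *Hk2*, *Pfkfb3*, *Gyg*, *Phka1*, *Phkb*, *Phkg1*, *Ppp1r3a* and *Ppp1r3c*, and 6.62% of all genes fell in that fit. Without *FRAIL1* muscle 5 and without the block, *Hk2*, *Pfkfb1*, *Pfkfb3* and *Phkg1* fell (2.52% of all genes) and *Hk1* and *Eno1* rose (3.69%). *Hk1* and *Eno1* passed in every one of the 12 fits that left out 1 muscle. *Phkg1* passed in 3 of these 12, namely those without *FRAIL1* muscle 2, 3 or 5, and its adjusted p rose to at most 0.088 in the other fits. By other tests and subsets, the same 2 genes rose and the number that fell varied. It was 4 with DESeq2 (6.18% of all genes fell and 8.37% rose), 16 with DESeq2 and the block (9.2% and 9.71%), 6 with limma voom (5.43% and 6.41%) and 2 with a fit that was not robust (1.96% and 4.77%). With 1 muscle left out it was 6 for *FRAIL1* muscle 3 (5.65% and 7.87%) and 3 for *FRAIL1* muscle 2 (4.15% and 6%). It was 2 without both muscles of mouse 5 (2.52% and 3.09%) and 11 without them in the fit with the block (7.81% and 7.04%). Groups did not overlap for 5 of the 36 genes: every *FRAIL1* muscle lay above every Control muscle for *Hk1* and *Eno1* (3.12% of all genes tested) and below for *Hk2*, *Pfkfb3* and *Phkg1* (1.77%).

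Of the genes of glucose entry and phosphorylation, *Hk1* rose, and *Hk2* had lower values that missed the threshold. *Hk1* (NCBI Gene 15275, GRCm38 chromosome 10, 62268855 to 62379920) encodes the hexokinase of brain, red cells and most other tissues, which binds mitochondria and traps glucose in the cell as its phosphate. Its level in the Control muscles ran from 25.3 CPM over a median of 27.4 to 31.8 CPM, and in the *FRAIL1* muscles from 34.2 over 39.1 to 53.5 CPM. The groups did not overlap, and the *FRAIL1* leg was higher in 6 of 6 mice. The antisense gene *Hk1os* overlaps 1.84% of its exon bases. The mean went from 28.1 ± 2.19 to 40.4 ± 7.12 CPM (SD, n = 6 each), a log2 fold change of 0.53 (SE 0.0975) with an adjusted p of 0.0109, and of 0.43 without *FRAIL1* muscle 5, the muscle with the highest level. *Hk2* (Gene 15277, chromosome 6, 82725025 to 82774454) encodes the insulin-responsive hexokinase of muscle and fat. Its levels ran from 406 over 437 to 472 CPM in Control and from 226 over 369 to 404 CPM in *FRAIL1* muscles. No *FRAIL1* muscle reached the lowest Control muscle, yet *Hk2* missed the threshold, with a log2 fold change of -0.35 (SE 0.115) and an adjusted p of 0.0751. With the block its adjusted p was 0.0334, and it was 0.0403 when *FRAIL1* muscle 5, the lowest of the 6, was left out. *Slc2a1*, the basal glucose transporter of most cells, averaged 11.6 CPM in both groups.

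The sequences before the starts of *Hk1* and *Hk2* are shown because the balance of these genes differed between the groups. They are RefSeq windows of 250 bases that end at the base before an annotated start (GRCm38.p6), written 5′ to 3′ on the strand of the gene. Capitals mark ACGTG (the core of the hypoxia response element), GGGCGG (the GC box) and CTANNNNTAG (the core of the MEF2 site) on either strand.
Hk1 outer start, chr10:62379909-62380158, minus strand: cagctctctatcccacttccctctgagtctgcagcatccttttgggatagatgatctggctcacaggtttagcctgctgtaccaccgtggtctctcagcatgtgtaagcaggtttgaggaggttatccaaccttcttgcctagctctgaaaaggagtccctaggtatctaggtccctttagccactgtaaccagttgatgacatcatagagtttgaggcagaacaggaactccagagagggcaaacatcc
Hk2, chr6:82774455-82774704, minus strand: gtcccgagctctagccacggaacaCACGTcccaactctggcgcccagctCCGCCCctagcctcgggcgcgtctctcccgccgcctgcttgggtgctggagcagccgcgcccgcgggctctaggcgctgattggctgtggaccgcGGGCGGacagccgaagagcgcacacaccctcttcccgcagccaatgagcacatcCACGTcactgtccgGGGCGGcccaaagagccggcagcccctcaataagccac
The *Hk2* window held 2 ACGTG and 3 GGGCGG matches, and the *Hk1* window at the outer start held none of the capitalised motifs. *Hk1* has a further annotated start inside the gene, whose window overlaps an exon and is not shown, and the counts do not separate transcripts of the starts.

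Enolase, which forms phosphoenolpyruvate, showed the largest rise among the 36 genes. *Eno1* (Gene 13806, chromosome 4, 150236708 to 150248879) encodes the α subunit found in most tissues and in developing muscle. Its level ran from 85.6 over 88.1 to 98.8 CPM in Control and from 108 over 137 to 186 CPM in *FRAIL1* muscles, with every *FRAIL1* muscle above every Control muscle. Its mean rose from 90.1 ± 5.21 to 144 ± 27.9 CPM (SD, n = 6 each), a log2 fold change of 0.68 (SE 0.106) with an adjusted p of 0.00372. Without *FRAIL1* muscle 5 the log2 fold change was 0.59. *Eno3* (Gene 13808, chromosome 11, 70653125 to 70662513) encodes the β subunit of adult muscle and was second only to *Aldoa* per exon length (4095 CPM per kb in Control). It ran from 6675 over 7048 to 7818 CPM in Control and from 6010 over 6796 to 7497 CPM in *FRAIL1* muscles. The groups overlapped in part, and the log2 fold change of -0.07 (SE 0.0776) had an adjusted p of 0.613. Of the *Eno1* transcript, 85.6% lies in stretches at least 98% identical to the copies *Eno1b* and *Gm4735*, so counts of uniquely mapped reads may understate its level. *Eno1b* also rose, from 14.2 ± 1.04 to 18.3 ± 2.16 CPM (SD, n = 6 each; adjusted p = 0.0203), and reads of these copies cannot be fully told apart.

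The starts of the enolase genes are shown for the same reason, with the same windows and capitals.
Eno1 outer start, chr4:150236458-150236707, plus strand: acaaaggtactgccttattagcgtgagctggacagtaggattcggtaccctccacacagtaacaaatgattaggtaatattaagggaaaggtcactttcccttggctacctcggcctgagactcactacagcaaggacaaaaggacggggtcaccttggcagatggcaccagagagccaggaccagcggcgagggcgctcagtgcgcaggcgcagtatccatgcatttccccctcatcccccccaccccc
Eno3, chr11:70656926-70657175, plus strand: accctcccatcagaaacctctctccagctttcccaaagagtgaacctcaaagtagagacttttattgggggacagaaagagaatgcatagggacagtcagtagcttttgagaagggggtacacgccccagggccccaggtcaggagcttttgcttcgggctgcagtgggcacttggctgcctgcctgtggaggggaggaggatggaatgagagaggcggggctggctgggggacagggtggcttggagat
Neither of these windows held a capitalised motif, and that of *Eno3* lies inside the extent given for the gene, which has a single start in the RefSeq table. Further *Eno1* starts within the gene are not shown, and the window of 1 of them held 2 GGGCGG matches. Over all 36 genes, 19 of 52 annotated windows (36.5%) held ACGTG, against 16.6% of 32851 windows of all genes. GGGCGG was found in 48.1% of the windows of these genes and 32.7% of all, CTANNNNTAG in 5.77% and 3.2%, and the E-box CANNTG, which can overlap ACGTG, in 69.2% and 66.2%. The windows of these genes were also richer in G and C, with a median of 59.8% against 52.4% for all, and the part of this in the motif counts was not tested.

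**Figure D2:**
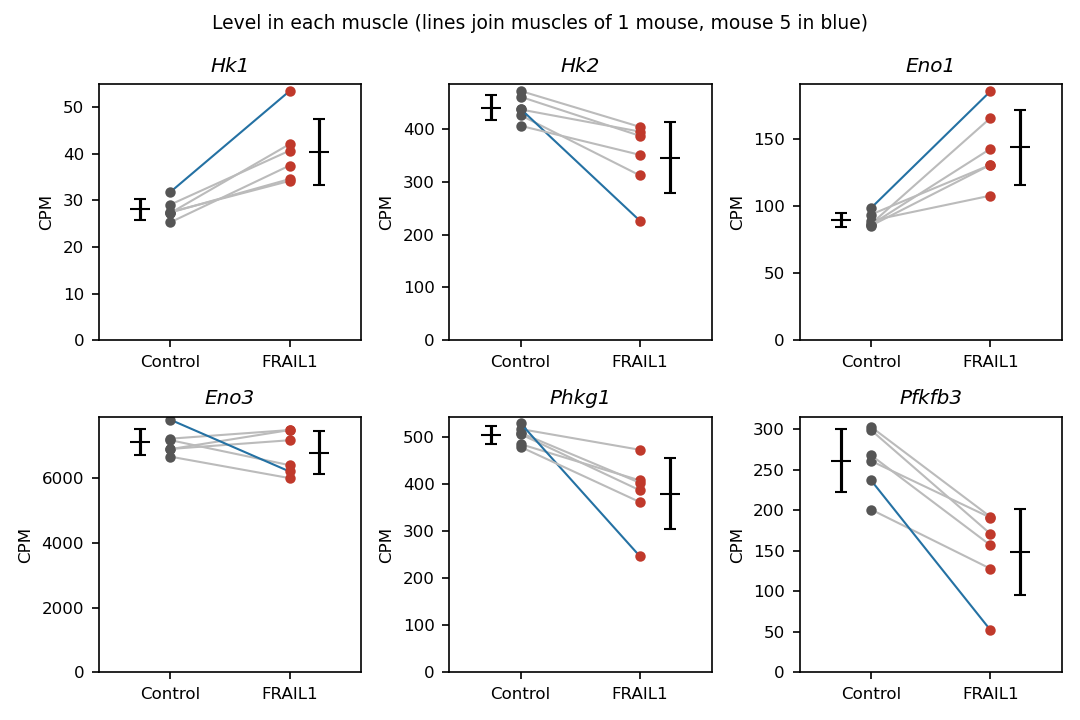
CPM (y axis, from 0) of *Hk1*, *Hk2*, *Eno1*, *Eno3*, *Phkg1* and *Pfkfb3* in every muscle. Points are muscles, lines join the legs of 1 mouse with mouse 5 in blue, and the bars at the sides are means ± SD of 6 muscles. All *FRAIL1* points lie above all Control points for *Hk1* and *Eno1* and below them for *Hk2*, *Phkg1* and *Pfkfb3*, while those of *Eno3* overlap.

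The balance of muscle and other isoforms was compared within each muscle as the log2 ratio of their counts, which does not depend on library scaling. An exact two-sided permutation test over the 924 ways to split 12 muscles into 6 and 6 was applied to each of 9 ratios, and the smallest p it allows is 0.00216. *Hk2* over *Hk1* ran from 3.78 to 4.10 on the log2 scale in Control and from 2.08 to 3.56 in *FRAIL1* muscles. The groups did not overlap, and the mean difference was -0.89, with the smallest p allowed (0.00974 after adjustment over the 9 ratios). *Eno3* over *Eno1* ran from 6.15 to 6.40 in Control and from 5.06 to 5.89 in *FRAIL1* muscles, again without overlap, a mean difference of -0.73 with the same exact p and adjusted p. Both ratios were lower in the *FRAIL1* leg of 6 of 6 mice, and without *FRAIL1* muscle 5 the differences were -0.68 and -0.62, each with an adjusted exact p of 0.00974. With signs flipped within the 6 mice, where no p under 0.0312 can be reached, the adjusted exact p of both was 0.0563.

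*Hk2* and *Eno3* remained the main forms of their pairs. Per exon length, *Hk2* made up 95.7 ± 0.303% of the hexokinase mRNA from this pair in Control muscles (SD, n = 6) and 92 ± 3.23% in *FRAIL1* muscles (SD, n = 6). *Eno3* made up 99.59 ± 0.0238% of its pair and 99.31 ± 0.151% (SD, n = 6 each), shares that would be overstated by any reads *Eno1* loses to its copies. Exon length here joins all annotated exons, 8532 bases for *Hk1* and 5379 for *Eno1*, against 4278 and 2027 in their longest coding transcripts. For *Hk2* and *Eno3* these lengths were 5969 and 1739 against 5513 and 1564. By transcript length the shares of *Hk2* and *Eno3* would therefore be lower, and the share of *Pfkfb1* below also depends on the length used. For phosphofructokinase, which commits glucose to glycolysis, the log2 ratio of the muscle isoform *Pfkm* to *Pfkl* and *Pfkp* together differed by -0.36 (exact permutation p = 0.0238, adjusted 0.0633). For the bifunctional enzymes that set the level of fructose 2,6-bisphosphate, *Pfkfb1* over *Pfkfb3* and *Pfkfb4* differed by 0.34 (exact permutation p = 0.0281, adjusted 0.0633). *Pfkfb1* was the lesser form of its group, with 15.7% of the mRNA per exon length in Control and 18.5% in *FRAIL1* muscles. The other 5 ratios did not pass: *Pgam2* over *Pgam1* differed by -0.38, *Pygm* over *Pygb* by -0.36, *Slc16a3* over *Slc16a1* by -0.27, *Ldha* over *Ldhb* by 0.16 and *Aldoa* over *Aldoc* by 0.02, with adjusted exact p between 0.125 and 0.965. Within mice, *Pygm* over *Pygb* and *Slc16a3* over *Slc16a1* were lower and *Ldha* over *Ldhb* higher in the *FRAIL1* leg of 6 of 6 animals, so these ratios had the same sign-flip exact p of 0.0312 (adjusted 0.0563) as those of *Hk2* and *Eno3*. Among the isoforms set against a muscle isoform in these ratios, *Hk1* and *Eno1* rose and no other passed. *Pfkl*, *Pfkp*, *Pgam1*, *Pygb* and *Aldoc* had log2 fold changes of 0.09, 0.13, 0.21, 0.05 and -0.23, with adjusted p between 0.415 and 0.78.

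**Figure D3:**
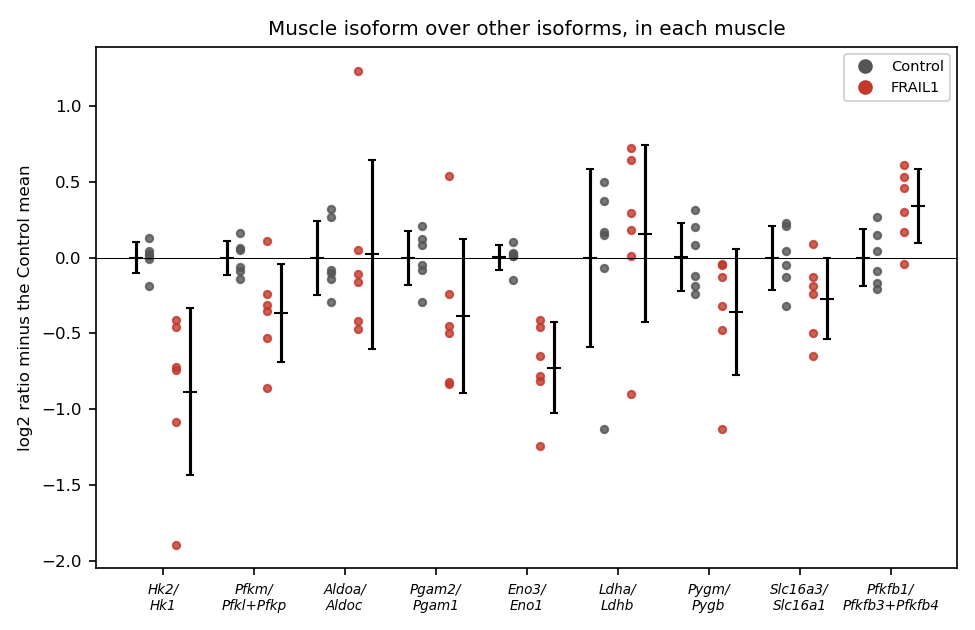
Log2 ratio of muscle isoform to other isoform counts in each muscle, minus the Control mean of that ratio (y axis), for 9 pairs or groups of isoforms (x axis). Grey points are Control and red points *FRAIL1* muscles, with means ± SD of 6 muscles beside them. Red and grey points are separate for *Hk2*/*Hk1* and *Eno3*/*Eno1* and overlap for the other 7 ratios.

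Markers of other cell types and fiber states also differed between the groups. The summed level of the 6 fibroblast markers was between 919.6 and 1756 CPM in Control and between 1865 and 4839 CPM in *FRAIL1* muscles, although none of the 6 passed the test. Most of that sum was the collagen mRNAs *Col1a1* (means of 449 and 927 CPM) and *Col3a1* (731 and 1293 CPM). *Pdgfra* (15.9 and 21.5 CPM) and *Lum* (28.5 and 48.1 CPM) were also higher. *Dcn* (184 and 186 CPM) hardly differed, and *Pi16* (19.5 and 17.7 CPM) was slightly lower. That of 6 macrophage markers was 113 to 178 CPM and 147 to 326 CPM, also with none called. Of 6 markers of satellite cells and regenerating fibers, *Myog*, *Myh3* and *Myh8* rose, with a sum of 165 to 212 CPM in Control and 320.5 to 1531 CPM in *FRAIL1* muscles. Of 6 denervation markers 4 rose (68.8 to 105 CPM and 158 to 275 CPM). Of 6 slow fiber markers, *Tnni1*, *Tnnt1*, *Tnnc1* and *Atp2a2* rose, with a sum over all 6 of 122 to 133 CPM and 204 to 609 CPM. The slow myosin genes *Myh7* and *Myl2* did not pass (edgeR adjusted p = 0.696 and 0.725). Both were lower in the *FRAIL1* leg of 4 of 6 mice, with medians of 2.94 and 0.99 CPM in Control and 2.32 and 0.478 CPM in *FRAIL1* muscles. Both were highest in *FRAIL1* muscle 6, at 15.1 and 5.76 CPM. Of 5 endothelial markers, *Tek* and *Vwf* fell, and the sum was 359 to 413 CPM and 286 to 365 CPM. No marker of these lists was at 0 in any Control muscle, and the part of these cell types and fiber states in the levels of *Hk1* and *Eno1* was not tested.

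Upper glycolysis, from glucose 6-phosphate to the triose phosphates, had no gene past the threshold among its 7, with a median log2 fold change of -0.07. *Pfkm*, the phosphofructokinase of muscle, ran from 5447 over 5586 to 5954 CPM in Control and from 3351 over 5013 to 5657 CPM in *FRAIL1* muscles. It was lower in the *FRAIL1* leg of 6 of 6 mice, but by log2 -0.01 in mouse 3 and -0.83 in mouse 5, and its log2 fold change of -0.23 (SE 0.101) had an adjusted p of 0.154. *Aldoa*, the aldolase of muscle and per exon length the most abundant of the 36 mRNAs (6859 CPM per kb in Control), ran from 18040 over 20271 to 21573 CPM and from 12780 over 17751 to 20061 CPM. Its log2 fold change was also -0.23 (SE 0.0988, adjusted p = 0.148). *Gpi1* and *Tpi1*, the isomerases of this stretch, had log2 fold changes of -0.02 and -0.07. Without *FRAIL1* muscle 5 the log2 fold changes of *Pfkm* and *Aldoa* were -0.15 and -0.16.

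The enzymes that control fructose bisphosphate had the lowest median of any step, a log2 fold change of -0.39 over 4 genes, none of which passed the test. *Pfkfb3*, the isoform with the strongest kinase activity, which raises fructose 2,6-bisphosphate and so speeds glycolysis, ran from 201 over 264 to 303 CPM in Control and from 52.3 over 164 to 192 CPM in *FRAIL1* muscles. The groups did not overlap. The log2 fold change of -0.82 (SE 0.253) had an adjusted p of 0.07, or 0.0432 in the blocked fit. When *FRAIL1* muscle 5 was left out, the log2 fold change was -0.64 and the adjusted p 0.0103. *Pfkfb1* (34.2 ± 3.64 and 25.7 ± 6.51 CPM), *Pfkfb4* (55.9 ± 8.26 and 44.4 ± 10.01 CPM) and *Fbp2*, the fructose bisphosphatase of muscle (37.4 ± 4.97 and 29.1 ± 6.59 CPM; SD, n = 6 each), had log2 fold changes of -0.41, -0.33 and -0.36 with adjusted p between 0.127 and 0.165. *Pfkfb1* passed without *FRAIL1* muscle 5 (adjusted p = 0.0443), in which it was at 13.3 CPM.

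Lower glycolysis outside enolase hardly differed. *Pkm*, the pyruvate kinase of muscle, averaged 5823 ± 332 and 5270 ± 704 CPM (SD, n = 6 each; log2 fold change -0.14, adjusted p = 0.318), and *Pgam2*, the phosphoglycerate mutase of muscle, 2331 ± 194 and 2047 ± 319 CPM (-0.19, adjusted p = 0.233). *Gapdh* and *Pgk1*, which form the energy-rich phosphates of this stretch, had log2 fold changes of -0.01 and -0.04. The level of *Gapdh*, only 46.6 CPM in Control muscles, may be understated by how reads were counted. Of its transcript 88% is at least 98% identical to copies in 41 other genes, and reads that map to more than 1 place were not counted. The same share was 76.8% for *Ldhb*, 68.8% for *Pgk1*, 65.5% for *Pkm*, 45.5% for *Gpi1* and 43.1% for *Pgam1*, whose levels may be understated too. The number of reads lost in this way was not measured. The share of *Gpi1* also includes *Gm26762*, which overlaps 11.5% of its exon bases on the opposite strand, so any understatement rests on the copy *Gm1840*.

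Genes of lactate formation and transport had no call among 4. *Ldha*, the lactate dehydrogenase subunit of fast muscle, had a log2 fold change of -0.10 and *Slc16a1*, a lactate transporter of many cells, of -0.04. *Slc16a3*, the transporter that exports lactate from fast fibers, ran from 519 over 673 to 754 CPM in Control and from 397 over 565 to 685 CPM in *FRAIL1* muscles, and its log2 fold change of -0.29 had an adjusted p of 0.164. *Ldhb*, the subunit of heart and oxidative fibers, was at 82.5 and 65.6 CPM in the Control and the *FRAIL1* muscle of mouse 6 and between 18.3 and 39.5 CPM in the other 10 muscles.

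Glycogen breakdown held the member that fell. *Phkg1* (Gene 18682, chromosome 5, 129863431 to 129879134) encodes the catalytic γ subunit of muscle phosphorylase kinase, which switches on glycogen phosphorylase in response to calcium and adrenaline. It ran from 478 over 507 to 528 CPM in Control and from 246 over 394 to 472 CPM in *FRAIL1* muscles. Every *FRAIL1* muscle lay under the lowest Control muscle. The mean fell from 503 ± 19.1 to 379 ± 74.9 CPM (SD, n = 6 each), a log2 fold change of -0.41 (SE 0.114) with an adjusted p of 0.0469, or 0.0295 in the blocked fit. Leaving out *FRAIL1* muscle 5 gave a log2 fold change of -0.31. Of its transcript 26.5% lies in near-identical stretches of other genes, a share that includes *Sumf2*. That gene overlaps 9.68% of the *Phkg1* exon bases on the opposite strand and was at 12 ± 1.04 and 11.2 ± 0.958 CPM (SD, n = 6 each).

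The other muscle subunits of phosphorylase kinase had lower values of similar size but did not pass in the fit without the block. *Phka1*, the regulatory α subunit of muscle, ran from 527 over 695 to 735 CPM in Control and from 335 over 561 to 659 CPM in *FRAIL1* muscles, with a log2 fold change of -0.32 (adjusted p = 0.15, and 0.0348 with the block). *Phkb*, the β subunit, ran from 345 over 403 to 415 CPM and from 224 over 312 to 381 CPM, with a log2 fold change of -0.30 (adjusted p = 0.1, and 0.0223 with the block). *Phkb* also passed by limma voom (adjusted p = 0.0345) and in the fits without *FRAIL1* muscle 2 (0.0488) or 3 (0.046). Both overlapped between the groups and both were lower in the *FRAIL1* leg of 6 of 6 mice. *Pygm*, the muscle glycogen phosphorylase that this kinase activates, ran from 10648 over 11514 to 11734 CPM in Control and from 6535 over 9687 to 10925 CPM in *FRAIL1* muscles. Its log2 fold change of -0.29 (SE 0.105) had an adjusted p of 0.0921, and *Pygb*, the brain isoform, averaged 12.1 and 12.5 CPM.

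Of the glycogen synthesis and phosphatase genes none passed, and with the block 1 of 4 and 2 of 2 fell, beside 6.62% of all genes in that fit. *Gyg*, the glycogenin that primes each glycogen particle, averaged 330.2 ± 13.8 and 289 ± 31.9 CPM (SD, n = 6 each), with a log2 fold change of -0.19 (adjusted p = 0.106, and 0.0479 with the block). *Gys1*, the muscle glycogen synthase, *Ugp2*, which makes its substrate UDP-glucose, and *Gbe1*, the branching enzyme, had log2 fold changes of -0.13, -0.10 and 0.03 with adjusted p between 0.343 and 0.917. *Ppp1r3a* and *Ppp1r3c*, the subunits that hold protein phosphatase on glycogen, had log2 fold changes of -0.31 and -0.36. Their adjusted p of 0.183 and 0.119 became 0.0466 and 0.0129 with the block, and both were lower in 6 of 6 mice. In mouse 5 *Ppp1r3a* was low in both legs, 133 CPM in the Control and 119 CPM in the *FRAIL1* muscle.

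Mouse 5 carried the largest within-mouse differences. The median over the 36 genes of the log2 difference between legs, *FRAIL1* minus Control, was -0.07, -0.14, -0.03, -0.03, -0.40 and -0.16 in mice 1 to 6, while the median over all genes tested lay between -0.01 and 0.01 in each mouse. *FRAIL1* muscle 5 had the lowest level of the 6 *FRAIL1* muscles for 23 of the 36 genes (63.9%), against 27.5% of all genes tested. Mouse 5 had the largest fall or smallest rise for 28 of them, and the share over all genes was not computed. The number of the 36 genes lower in the *FRAIL1* leg was 21, 29, 24, 20, 31 and 29 in mice 1 to 6. Across mice, 15 of the 36 genes were lower in 6 of 6, against 11.7% of all genes tested, and 2 were higher in 6 of 6, against 11.5%. Some of the 15 barely differed in a mouse, with log2 -0.01 for *Pfkm* and *Aldoa* in mouse 3. The genes lower in every mouse included the muscle isoforms *Hk2*, *Pfkm*, *Aldoa* and *Pygm*, the 3 bifunctional enzymes and the 3 subunits of phosphorylase kinase. The levels of these genes are correlated within a muscle, so that counts over the genes are a description. Fast glycolytic fiber markers moved with them: the sum of 5 such markers was 81322 to 96846 CPM in Control and 51206 to 83753 CPM in *FRAIL1* muscles, lowest in muscle 5, with none of the 5 past the test, and its part in these differences was not tested.

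**Figure D4:**
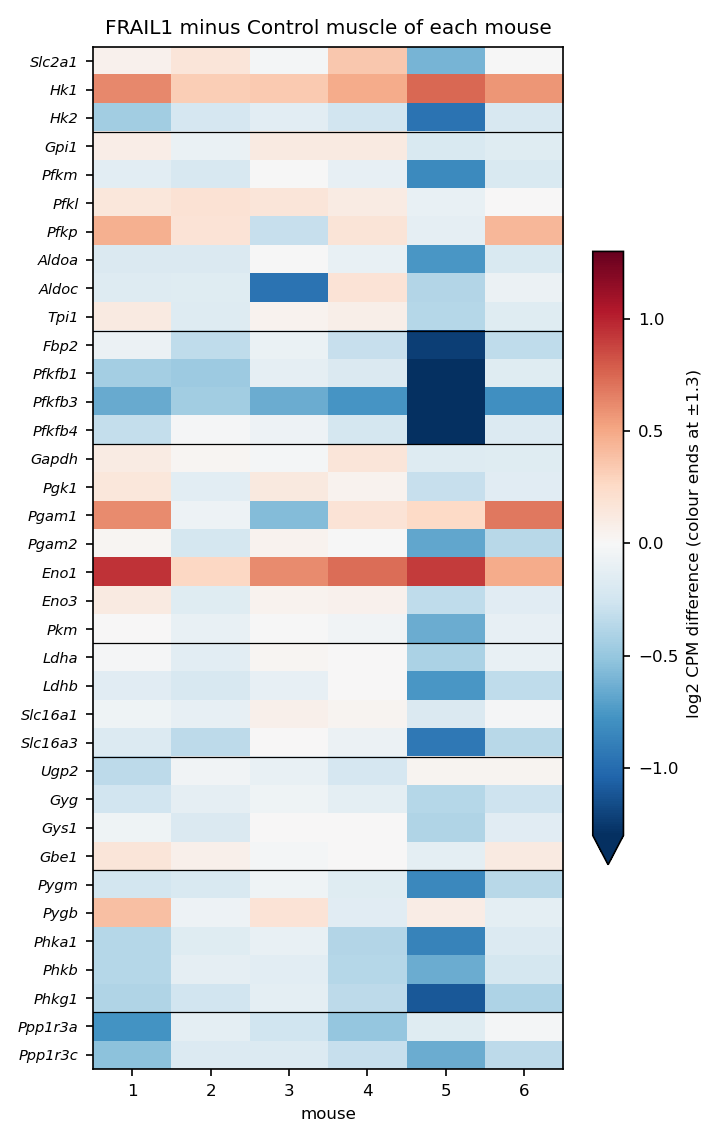
Log2 CPM of the *FRAIL1* muscle minus that of the Control muscle of the same mouse (colour; blue is lower and red higher, and the scale ends at ± 1.3), for the 36 genes (rows, in order of role) and 6 mice (columns). The column of mouse 5 is the darkest, the rows of *Hk1* and *Eno1* are red in all 6 mice, and 15 rows are below 0 in all 6, in places only slightly.

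Other genes of the pathway, 64 in all of which 56 were tested, had 3 that rose (4.43% of all genes) and 6 that fell (1.85%). Leaving out 1 muscle gave 2 or 3 that rose and 1 to 10 that fell, with 10 when it was *FRAIL1* muscle 3 (5.65% of all genes). The number that fell was 8 without *FRAIL1* muscle 2 (4.15%) or 5 (2.52%), 2 without Control muscle 5 and 1 for each of the others. *Slc2a3*, *Galm* and *Phka2* passed in all 12 of these fits, *Pgm2l1* in 4, and *Tigar*, *Gpd2*, *Epm2a*, *Calm3* and *Emb* in 3 each. *Slc2a4*, the insulin-responsive glucose transporter of muscle, ran from 501 over 555 to 565 CPM in Control and from 271 over 448 to 526 CPM in *FRAIL1* muscles, with a log2 fold change of -0.34 (SE 0.117) and an adjusted p of 0.0806. The transporter *Slc2a3*, known best from neurons, fell from 8.22 ± 1.17 to 5.01 ± 1.14 CPM (SD, n = 6 each), a log2 fold change of -0.71 with an adjusted p of 0.0159. *Tigar*, a phosphatase that lowers fructose 2,6-bisphosphate, and *Gpd2*, the mitochondrial enzyme of the glycerol phosphate shuttle, fell by 0.48 and 0.55 on the log2 scale (adjusted p = 0.0459 and 0.0464). The glycogen genes that fell were *Epm2a*, the laforin phosphatase (log2 fold change -0.46), *Pgm2l1*, a sugar bisphosphate synthase (-0.36), and *Calm3*, 1 of 3 genes for calmodulin, a subunit of phosphorylase kinase (-0.35), with adjusted p between 0.0421 and 0.048.

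The genes of these that rose were *Phka2*, *Galm* and *Emb*. *Phka2*, the α subunit of phosphorylase kinase in liver and other tissues, ran from 7.63 over 8.68 to 9.46 CPM in Control and from 9.89 over 12 to 13.1 CPM in *FRAIL1* muscles. Its groups did not overlap, and the log2 fold change of 0.44 (SE 0.0892) had an adjusted p of 0.0144, while that of the muscle subunit *Phka1* was -0.32. *Galm*, the mutarotase that opens galactose metabolism, rose from 2.84 ± 0.413 to 4.96 ± 1.33 CPM (SD, n = 6 each; adjusted p = 0.0147), and *Emb*, a partner of lactate transporters, from 4.32 ± 0.797 to 6.58 ± 1.44 CPM (SD, n = 6 each; adjusted p = 0.0423). None of the 12 regulators listed passed in the fit without the block, among them *Hif1a*, *Txnip* and the MondoA gene *Mlxip*. With the mouse as a block, 4 of the 56 rose and 12 fell, beside 7.48% and 6.62% of all genes. *Stbd1*, listed with the glycogen genes, was among those that rose in that fit (adjusted p = 0.00221). The regulators *Txnip*, *Mlxip* and *Nr4a1* were among those that fell in it (adjusted p = 0.0343, 0.0287 and 0.0248). *Txnip* also passed by DESeq2 without the block (adjusted p = 0.0352).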

How the data were processed

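Poly(A)+ RNA of 12 mouse TA muscles was measured by RNA-seq. Per the study's methods and the submitters' processing notes, the authors trimmed paired-end reads with Trimmomatic, mapped them to mm10 with STAR 2.7.8a and counted reads that mapped uniquely to annotated genes with featureCounts 2.0.1. The deposited values are raw read counts per NCBI Gene ID, not normalized; whether counting used strand is not given in the sources used here. Of 27179 genes, 25275 were matched to a symbol, and the others held 0.28% of the counts.

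After filterByExpr (15502 genes left) and TMM scaling, groups were compared in edgeR 4.0.16 (R 4.3.3) by a quasi-likelihood fit, robust, with a term for group only, with Benjamini-Hochberg adjustment over all genes tested and a threshold of 0.05. TMM factors lay between 0.935 and 1.19. Ratios of isoforms added 0.5 to each count. Near-identical copies (at least 98% over 100 bases) were searched with BLAST 2.17.0, and genes that overlap at the same place were not left out. The test was tested on simulated data. Depth (44848322 to 60527385 counts per muscle) limits only genes of a few CPM, and replicate spread sets the precision of the others. P-values set the difference between groups against the spread between these muscles, which in the main fit includes differences between mice.

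The series' design places both plasmids in each of 6 mice, and muscles of 1 number were taken as those of 1 mouse. The deviations from the group means correlated at 0.322, 0.197, 0.35, 0.321, 0.0723 and 0.228 for numbers 1 to 6 (mean 0.248, against -0.0496 between different numbers), so the pair numbered 5 was the least alike.

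The 36 genes, the other lists, the ratios and the tests were chosen with earlier results of these data known. Full values were given for genes past the threshold and for both sides of the ratios that passed, and the others by ranges; of the other pathway genes, *Slc2a4* was always named and those past the threshold, at most 12. Alternatives were the replicate block, other scalings and filters, DESeq2 1.42.0, limma 3.58.1 voom, a fit that was not robust, each muscle left out in turn, and both muscles numbered 5 left out.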

Additional observations from a re-analysis of the deposited data

Results flagged for a closer look

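Of 72 groups of 6 muscles (36 genes in 2 groups), 5 had a muscle far from the others by Dixon's test at the 95% level. Chance alone flags about 1 in 20 groups. *Ldhb* was highest in the muscles of mouse 6 in both groups, at 82.5 CPM in Control muscle 6 (next highest 39.5) and 65.6 CPM in *FRAIL1* muscle 6 (next highest 34.1). *Pfkfb1* was lowest in *FRAIL1* muscle 5, at 13.3 CPM against 24.7 CPM in the next muscle. *Aldoc* was lowest in *FRAIL1* muscle 3, at 2.16 CPM against 4.29 CPM. *Ppp1r3a* was lowest in Control muscle 5, at 133 CPM against 198 CPM.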

How the results depend on the processing

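*Hk1* and *Eno1* rose under all 25 alternatives, with log2 fold changes of 0.43 to 0.57 and 0.59 to 0.75, and no other of the 36 genes rose in any. In the main fit 1 fell (1.85% of all genes fell). The number that fell was 8 with the mouse as a replicate block (6.62%), 4 by DESeq2's Wald test (6.18%) and 16 by DESeq2 with the block (9.2%). By limma voom it was 6 (5.43%), and with a fit that was not robust 2 (1.96%). Without both muscles numbered 5 it was 2 (2.52%), or 11 with the block (7.81%). Leaving out 1 muscle gave 0 to 6 that fell, with 0 for 9 of the 12 muscles. The number was 6, 4 and 3 without *FRAIL1* muscle 3, 5 or 2 (5.65%, 2.52% and 4.15% of all genes). Other scalings and filters left it at 1. For the isoform ratios *Hk2* over *Hk1* (-0.89) and *Eno3* over *Eno1* (-0.73), signs flipped within mice (replicate block) gave an adjusted exact permutation p of 0.0563. Both were at the smallest p that 64 sign patterns allow (0.0312 before adjustment), so a larger difference could not have lowered it. Leaving out 1 muscle changed 5 other ratios: *Pfkm* over *Pfkl* and *Pfkp* passed without *FRAIL1* muscle 3 (-0.45), as did *Pgam2* over *Pgam1* (-0.57), and *Pfkfb1* over *Pfkfb3* and *Pfkfb4* passed without *FRAIL1* muscle 1 (0.41). The sign turned for *Aldoa* over *Aldoc* without Control muscle 1, Control muscle 6 or *FRAIL1* muscle 3 (-0.01, -0.04 and -0.22) and for *Ldha* over *Ldhb* without Control muscle 6 (-0.07). Over the 12 fits, differences lay between -0.45 and -0.26 for the *Pfkm* ratio, -0.57 and -0.29 for *Pgam2*, -0.22 and 0.12 for *Aldoa*, -0.07 and 0.37 for *Ldha*, 0.28 and 0.41 for *Pfkfb1*, -0.98 and -0.68 for *Hk2* and -0.79 and -0.62 for *Eno3*. The causes were not tested. Depth limits mainly *Pgam1* and *Aldoc*, under 6 CPM.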
